A study of Mus musculus with 4 samples.

Results

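The Hox genes were examined in 4 lines of mouse embryonic fibroblasts (MEFs), 2 of them Ip6k1+/+ and 2 Ip6k1-/-. Members were chosen by name: every probe that is not a control and whose gene name in the array files is Hox, a cluster letter from a to d and a paralog number. This gave 50 probes for 38 genes, out of 41174 probes for 27827 gene names on the array. Hoxc11, the remaining gene among the 39 Hox genes of the RefSeq table, was not analysed here. The embryos were taken at embryonic day 14 from the mating of a heterozygous pair and all came from 1 litter. All 4 lines had been immortalised with SV40 large T antigen, so that the Ip6k1+/+ lines carry it too, and were harvested while growing exponentially. Ip6k1, the gene of an inositol hexakisphosphate kinase that makes inositol pyrophosphates, was missing from the germ line of the Ip6k1-/- embryos and not from fibroblasts alone. The comparison asked how the loss of Ip6k1 bears on gene expression in these cells. Each line was grown from an embryo of its own and measured once, on 1 single-colour Agilent array, and the 4 arrays lay on 1 slide. The labels number the lines of each genotype as biological replicates 1 and 2 and give the number no further meaning.

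Hox genes encode homeodomain transcription factors and lie in 4 clusters, HoxA to HoxD, in which the order of the genes along the chromosome follows the place in the body where they are used. Genes with low paralog numbers are used from the hindbrain and neck backwards, those with middle numbers in the trunk, and those with high numbers in the lumbar, sacral and tail region and in the outer parts of the limbs. Fibroblasts keep much of the Hox pattern of the site they came from when they are grown in culture, and Polycomb and Trithorax proteins hold the silent and the active state. Hox proteins bind DNA together with TALE homeodomain proteins of the Pbx, Meis and Pknox families.

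Each measurement comes from a probe of 60 bases, and the array files place the probes on mouse build mm9. HoxA is on chromosome 6, with 14 probes for 11 genes, all on the minus strand. HoxB is on chromosome 11 between 96057368 and 96228510 with 15 probes for 10 genes. HoxC is on chromosome 15 between 102758794 and 102866583 with 9 probes for 8 genes, and HoxD is on chromosome 2 between 74508005 and 74603059 with 12 probes for 9 genes. The other clusters read on the plus strand, apart from the Hoxb2 probe A_51_P257789, which the files place on the minus strand. No exon, intron or UTR annotation of build mm9 was used here.

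The probes of the group 13 paralogs are shown first, since Hoxa13 and Hoxd13 on one side and Hoxb13 on the other parted the lines in opposite ways. Capitals mark the bases that all 3 probes share where they are aligned without gaps.
Hoxa13 A_52_P71789, chr6:52209015-52209074, minus strand: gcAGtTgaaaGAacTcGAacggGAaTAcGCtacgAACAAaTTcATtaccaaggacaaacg
Hoxb13 A_51_P290202, chr11:96057368-96057427, plus strand: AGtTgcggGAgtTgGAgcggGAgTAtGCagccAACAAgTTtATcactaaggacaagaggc
Hoxd13 A_51_P284571, chr2:74508005-74508064, plus strand: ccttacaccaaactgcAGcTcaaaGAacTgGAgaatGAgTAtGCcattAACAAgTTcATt
The 3 probes overlap in 44 aligned bases, of which 23 are identical (52.3%). The closest pair, Hoxa13 and Hoxd13, is identical at 33 of 46 aligned bases (71.7%).

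Signal is given as log2 of the background-corrected intensity minus the 75th percentile of the array, and 0 is therefore the 75th percentile itself. A gene was called detected in a line where the extraction software marked at least 1 of its probes as well above background, and is called at background where it marked none. Between 52.0% and 55.5% of all probes were well above background per line, and the lowest such signal lay between −5.20 and −4.68. Levels of different probes are not compared with each other, since probes differ in how well they bind. No Hox probe was saturated. The targeted gene was lower in both Ip6k1-/- lines by all 3 Ip6k1 probes. A_51_P213766 read 0.35 and 0.39 in Ip6k1+/+ MEFs and stayed at background in both Ip6k1-/- lines, a drop of at least 34.0-fold (limma adjusted p = 0.0355), and A_52_P413035 did likewise (at least 32.7-fold). A_51_P103718 was well above background in every line, at 2.46 and 2.61 in Ip6k1+/+ MEFs and −1.98 and −1.23 in Ip6k1-/- MEFs, and its difference of −4.13 did not pass (limma adjusted p = 0.367). Which Ip6k1 probes lie in the deleted part is not given in the sources used here. Of 11 fibroblast markers, 9 were detected in every line, and Lum and Fap were not. Pecam1 and Cdh5 of endothelium, Ptprc of blood cells, Cdh1 of epithelium and all 5 skeletal muscle markers were at background in all lines. Of 5 markers each, 3 endothelial, 2 blood and 1 epithelial were at background in all lines. The others of these 3 lists were detected in some line, 1 of each list in every line.

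The 4 lines did not share 1 Hox code. The Ip6k1+/+ lines had 21 and 28 of the 38 Hox genes detected (replicates 1 and 2), and the Ip6k1-/- lines 16 and 26. Of the 38 genes, 10 were detected in every line (26.3%), against 47.9% of all gene names on the array. Among the genes found in every line were Hoxa3, Hoxa7, Hoxa9, Hoxa10 and Hoxa11, Hoxb3 and Hoxb6, Hoxc4 and Hoxd8. Hoxb1, Hoxd1, Hoxd3 and Hoxd12 were at background in all lines. Because RNA was taken from whole cultures, fewer cells with a transcript and less of it per cell cannot be told apart.

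**Figure D1:**
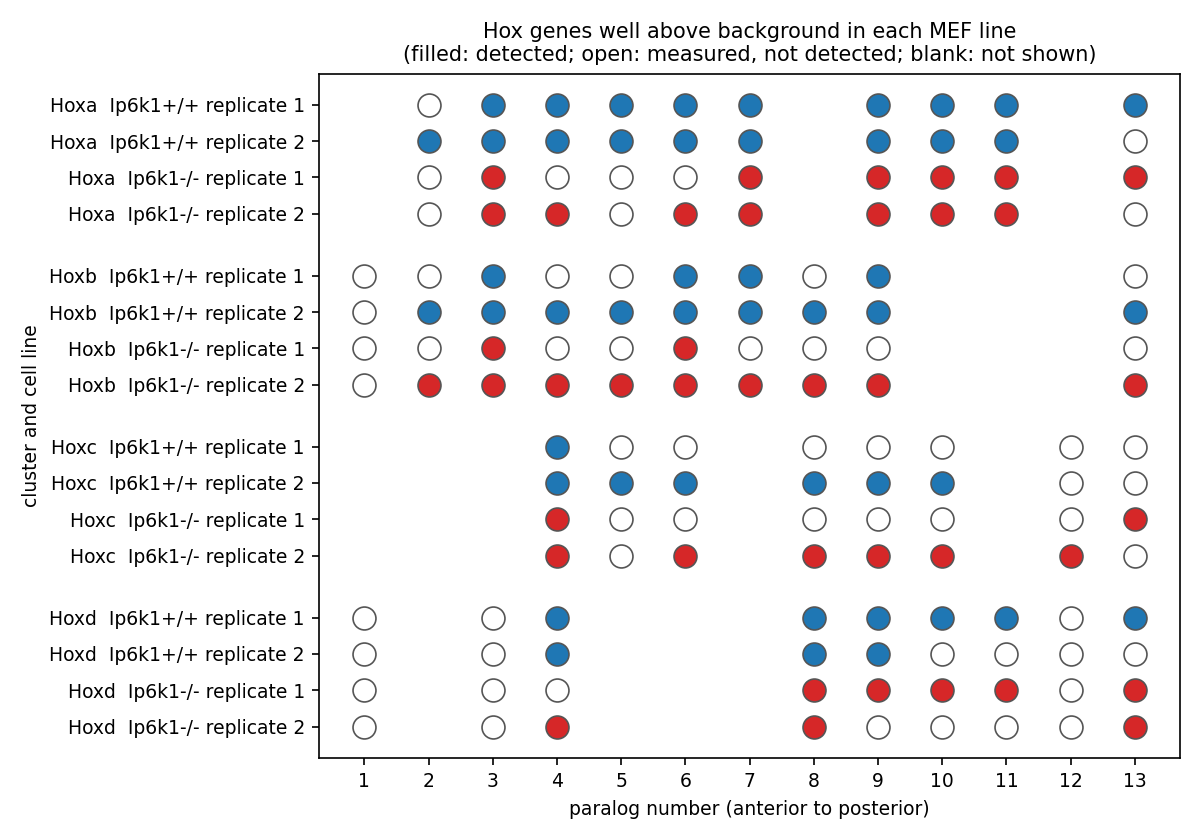
Detection of 37 of the 38 Hox genes by cluster and line (rows) and paralog number (columns), filled where at least 1 probe was well above background (blue Ip6k1+/+, red Ip6k1-/-), open where measured but not detected. HoxB and HoxC are filled mainly in the lines numbered 2, and Hoxd10, Hoxd11 and Hoxa13 only in the lines numbered 1.

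Detection parted the lines by replicate number in more Hox genes than by genotype. Of the 38 genes, 9 (23.7%) were detected in both lines numbered 2 and in neither line numbered 1, a pattern that 0.873% of all gene names had. They were Hoxb2, Hoxb4, Hoxb5, Hoxb8 and Hoxb13, and Hoxc6, Hoxc8, Hoxc9 and Hoxc10. The converse pattern, detection in both lines numbered 1 alone, was seen for Hoxa13, Hoxd10 and Hoxd11, which is 7.89% of Hox genes against 0.712% of all gene names. No Hox gene was detected in both Ip6k1-/- lines and in neither Ip6k1+/+ line, against 0.0862% of all gene names, and 1, Hoxa5, had the opposite pattern (2.63%, against 0.819%). A further 5 Hox genes (13.2%, against 0.765% of all gene names) were detected in every line but Ip6k1-/- replicate 1. They were Hoxa4, Hoxa6, Hoxb7, Hoxb9 and Hoxd4.

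By cluster the code read as follows. The HoxA genes were the most evenly spread, with 10 of 11 detected in each Ip6k1+/+ line and 7 and 8 in Ip6k1-/- MEFs. In HoxB the lines numbered 2 had 9 of 10 genes detected in both genotypes, all but Hoxb1, while the lines numbered 1 had 4 (Ip6k1+/+) and 2 (Ip6k1-/-). Of the 8 HoxC genes, 6 were detected in each line numbered 2, and 1 and 2 in the lines numbered 1. HoxD ran the other way, with 6 and 5 of 9 genes detected in the lines numbered 1 and 3 in each line numbered 2.

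By position along the axis, the 8 genes of paralog groups 1 to 3 were detected as 3 and 5 genes in Ip6k1+/+ MEFs and 3 and 4 in Ip6k1-/- MEFs. The 15 trunk genes of groups 4 to 8 showed the widest range, 9 and 15 in Ip6k1+/+ MEFs and 4 and 13 in Ip6k1-/- MEFs. The 15 genes of groups 9 to 13 numbered 8 or 9 in every line. The posterior genes were thus detected in similar number in all lines while their identity differed: Hoxa13, Hoxd10, Hoxd11 and Hoxd13 in the lines numbered 1, and Hoxb9, Hoxb13, Hoxc9 and Hoxc10 in those numbered 2, with the exceptions given below for Hoxb9 and Hoxd13.

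**Figure D2:**
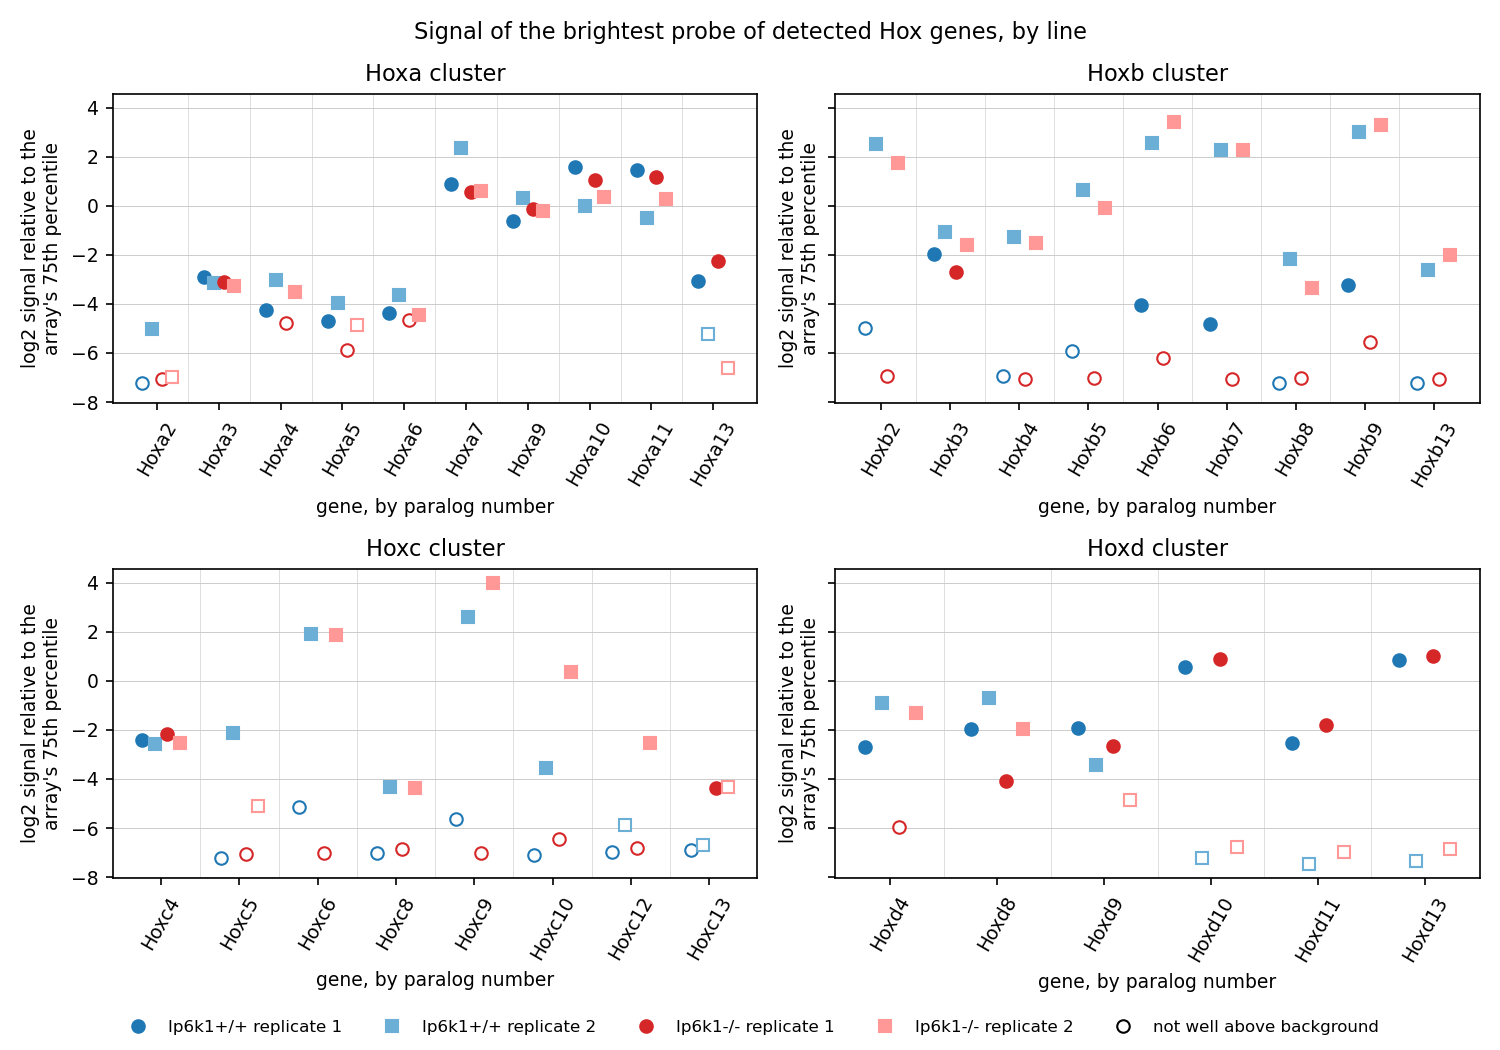
Log2 signal relative to the array's 75th percentile (y axis) of the brightest measured probe of 33 of the 34 Hox genes with that probe detected in a line, by cluster, in the 4 lines. Filled symbols are well above background and open symbols are not. Circles (replicate 1) and squares (replicate 2) part in most HoxB and HoxC genes and, the other way, in Hoxd10, Hoxd11, Hoxd13 and Hoxa13.

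Hoxd10, Hoxd11, Hoxd13 and Hoxa13, posterior genes that pattern the limbs, were higher in the lines numbered 1, while Hoxd12 was at background in all lines. Since most genes of this and the next 2 paragraphs did not enter the genotype test, they were chosen after their values were known. Hoxd10 read 0.55 and −7.22 in Ip6k1+/+ MEFs (replicates 1 and 2) and 0.90 and −6.77 in Ip6k1-/- MEFs. Hoxd13 (A_51_P284571) read 0.85 and −7.33 in Ip6k1+/+ MEFs and 1.01 and −6.84 in Ip6k1-/- MEFs. For both genes the lines numbered 1 were high and the lines numbered 2 not well above background, so that each genotype held 1 line of either kind. The signal of Hoxd13 was at least 65.3-fold higher in replicate 1 than in replicate 2 of Ip6k1+/+, and at least 51.3-fold higher in replicate 1 than in replicate 2 of Ip6k1-/-. Such a bound takes the bright line over the detection limit of the dim array, which is the lowest signal that was well above background there, or over the dim signal itself if that was higher. For Hoxd10 the bounds were 52.8-fold and 47.7-fold. Hoxd11, which shapes the forearm and the sacral spine, read −2.53 and −7.48 in Ip6k1+/+ MEFs and −1.80 and −6.99 in Ip6k1-/- MEFs. Here too the lines numbered 1 were the ones above background. Hoxa13 (A_52_P71789) read −3.07 and −5.21, and −2.25 and −6.60, again above background in replicate 1 of each genotype alone. Its other probe, A_51_P303316, gave the same calls, at −4.32 and −7.34 in Ip6k1+/+ MEFs and −3.64 and −6.86 in Ip6k1-/- MEFs.

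A second Hoxd13 probe, A_52_P591310, differed in part. It read 2.96 in Ip6k1-/- replicate 1 and −7.48 in Ip6k1+/+ replicate 2, as the first probe would place them, but was well above background at −4.17 in Ip6k1-/- replicate 2. Its spot on the array of Ip6k1+/+ replicate 1 was marked as an outlier and left out, at 2.60 if kept. This 1 dim value is why Hoxd13 counts as detected in 3 lines.

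Most HoxB genes were high in the lines numbered 2, apart from Hoxb1, at background in all lines, and 1 probe each of Hoxb3 and Hoxb6, described below. Hoxb2, a gene of the hindbrain and the branchial arches, read −4.98 and 2.52 in Ip6k1+/+ MEFs (A_52_P15300) and −6.93 and 1.77 in Ip6k1-/- MEFs. Replicate 2 exceeded replicate 1 at least 181-fold in Ip6k1+/+ and at least 91.8-fold in Ip6k1-/- MEFs. The Hoxb2 probe on the minus strand, A_51_P257789, read −7.06 and −3.36, and −6.88 and −3.27. By either probe the lines numbered 2 were the bright ones and no line numbered 1 was above background. Hoxb4, known for its role in blood stem cells, read −6.93 and −1.25 in Ip6k1+/+ MEFs and −7.06 and −1.51 in Ip6k1-/- MEFs. Hoxb5 read −5.93 and 0.63, and −7.00 and −0.08. Hoxb5 acts in the neck and shoulder region, and its 2 bright lines were again those numbered 2. Hoxb8 (A_51_P402686) read −7.23 and −2.17, and −7.04 and −3.34, while its other probe stayed at background throughout. Hoxb13, the most posterior gene of the cluster, read −7.24 and −2.61 in Ip6k1+/+ MEFs and −7.06 and −2.0 in Ip6k1-/- MEFs, with bounds of 6.02-fold and 6.74-fold between the lines. It therefore stood against its paralogs Hoxa13 and Hoxd13, whose probe sequences are given above with it.

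The trunk and lumbar genes of HoxC ran with HoxB. Hoxc9, a gene of the lower thoracic level, read −5.62 and 2.61 in Ip6k1+/+ MEFs and −7.02 and 4.01 in Ip6k1-/- MEFs, and its bounds between lines were 224-fold and 435-fold. Hoxc6 read −5.13 and 1.93, and −7.03 and 1.87. Hoxc8 was close to the limit of detection where it was detected, at −4.33 and −4.38. For these 3 genes both lines numbered 2 were detected and both lines numbered 1 were at background. The lumbar gene Hoxc10 (A_51_P375754) was less even, with −7.11 and −3.54 in Ip6k1+/+ MEFs and −6.45 and 0.38 in Ip6k1-/- MEFs, and its other probe (A_52_P351859) was detected in Ip6k1-/- replicate 2 alone, at −2.56. The remaining HoxC genes apart from Hoxc4 were detected in 1 line each: Hoxc5 in Ip6k1+/+ replicate 2 at −2.13, Hoxc12 in Ip6k1-/- replicate 2 at −2.55 and Hoxc13 in Ip6k1-/- replicate 1 at −4.36. For Hoxc13 the call rests on the limit of detection, since Ip6k1-/- replicate 2 read −4.33 and was not called.

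To place these gaps against the rest of the array, the difference between the 2 lines was taken inside each genotype, with dim values raised to the lowest signal well above background on their array and the brightest probe standing for each gene name. A gap of at least 4-fold in the same direction in both genotypes was found for 13 of 34 Hox genes with such a probe detected in a line (38.2%), against 339 of 16307 gene names (2.08%). Of these 13 genes, 4 were brighter in the lines numbered 1 (Hoxa13, Hoxd10, Hoxd11 and Hoxd13). The other 9, brighter in the lines numbered 2, were Hoxb2, Hoxb4, Hoxb5, Hoxb6, Hoxb7, Hoxb9, Hoxb13, Hoxc6 and Hoxc9. A gap of that size in opposite directions was found for 0 Hox genes and 14 gene names in all. These counts are a description of 4 lines without a test, as each line was measured once.

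**Figure D3:**
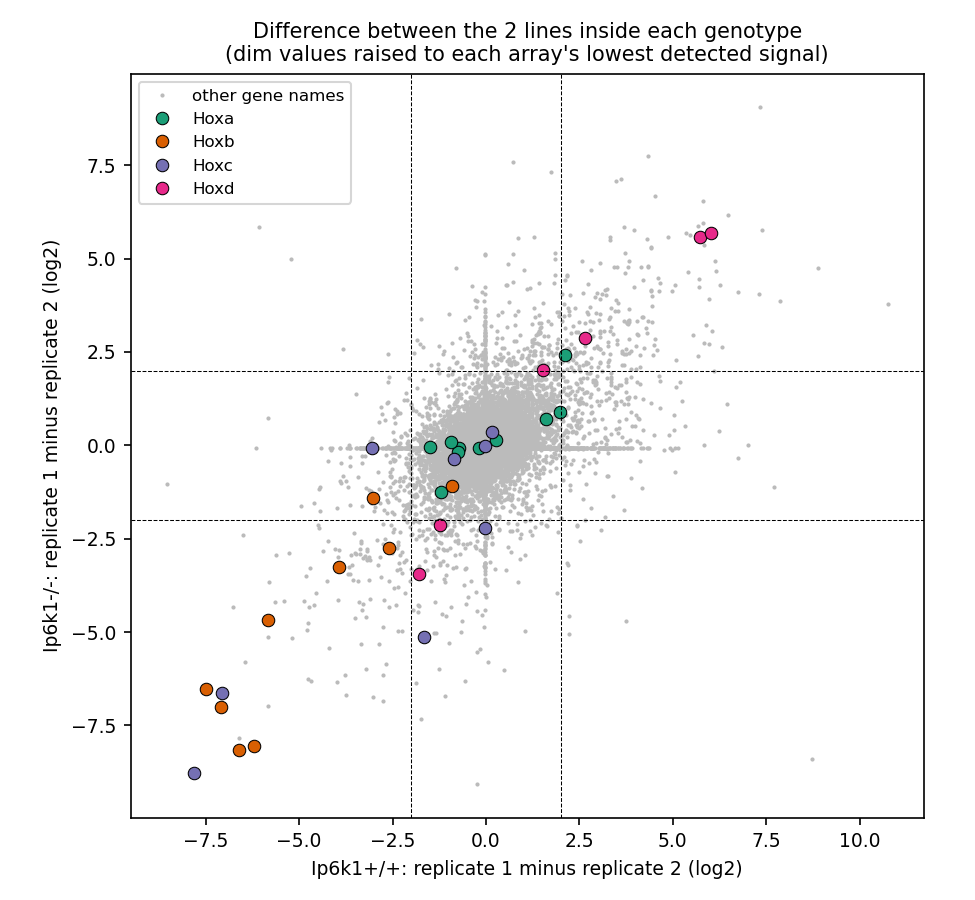
Replicate 1 minus replicate 2 on the log2 scale inside Ip6k1+/+ (x axis) and inside Ip6k1-/- (y axis), for 33 of the 34 Hox genes coloured by cluster and all other gene names in grey, with dim values raised to each array's lowest detected signal and dashed lines at 4-fold. Hoxb and Hoxc genes reach the lower left and Hoxd genes the upper right, and 13 Hox genes lie beyond both lines in 1 direction.

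Markers of other cell types were set beside this pattern, as summed signal of each list per line, in the order Ip6k1+/+ replicates 1 and 2 and Ip6k1-/- replicates 1 and 2. The fibroblast list read 8.89, 8.87, 8.76 and 8.66 on the log2 scale, with Col1a1 and Col1a2 saturated on all 4 arrays and Vim on 3. Of its 11 genes 10 were tested and 0 passed, with 3 below an unadjusted p of 0.05, against 3.34% of all probes. Their median difference between the genotypes was −0.50, with 4 lower past 2-fold in Ip6k1-/- MEFs, Dcn the most (−2.40), and 1 higher, Thy1 (1.03). Of all probes, 4.11% were lower and 1.84% higher past 2-fold. These sums are of linear signal, so that 1 bright gene can carry them. The epithelial sum was higher in the lines numbered 2, at −0.47, 1.64, −1.07 and 0.65, with 2, 4, 1 and 1 of 5 genes detected. Krt18 was detected in every line, as the only 1 in each Ip6k1-/- line, and Cdh1 in none. The neural and neural crest sum was also higher in the lines numbered 2, at 2.86, 3.37, 2.70 and 3.60, with 3, 5, 2 and 2 of 5 genes detected. Cartilage markers read 2.99, 1.43, 1.48 and −1.53, with Sox9, Col2a1 and Acan detected in every line and Matn1 in none. For the skeletal muscle list the sum stayed between −4.75 and −4.48, for the blood list between −2.15 and −1.41 and for the endothelial list between −3.28 and −1.32. The part of these differences in the Hox pattern was not tested.

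The genotypes were compared with limma on 21572 probes that were well above background in both lines of at least 1 genotype. Of the Hox genes, 17 entered the test, through 20 probes, and 17 of the 21 others were detected in some line without a probe that met this rule. None of the 17 passed an adjusted p of 0.05, where 3 of all 21572 probes did (0.0139%). The lowest adjusted p of a Hox gene was 0.993 and its lowest unadjusted p 0.108, so that 0 of the 17 were below an unadjusted 0.05, against 3.34% of all probes. No Hox gene therefore rose or fell with the loss of Ip6k1 by this test. With 2 lines per genotype, which differed from each other as shown above, this does not show that Hox expression was alike.

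**Figure D4:**
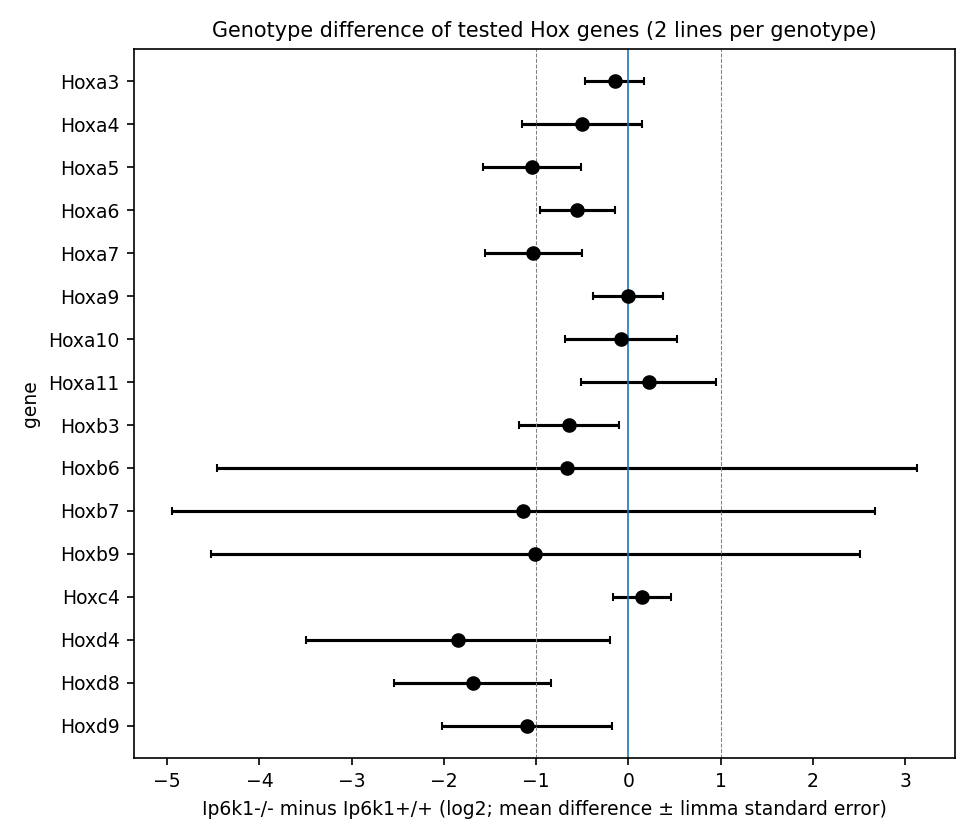
Mean log2 difference Ip6k1-/- minus Ip6k1+/+ (points) with its limma standard error (bars) for 16 of the 17 Hox genes tested, 2 lines per genotype, with dashed lines at 2-fold. Of the points, 14 lie below 0, and Hoxb6, Hoxb7 and Hoxb9 have the widest bars (standard errors of 3.52 to 3.81).

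The mean difference was below 0 for 15 of the 17 genes (13 with normexp background correction or a floor on dim values, 14 with median scaling), against 43.5% of all probes tested, and the median over the 17 was −0.64, against 0.05 over all probes and 0.04 over 14334 gene names. Without Ip6k1-/- replicate 1 the median was 0.48, over the genes that pass the filter on the 3 other arrays. Past 2-fold there were 7 genes lower in Ip6k1-/- MEFs and 0 higher, where 4.11% of all probes were lower and 1.84% higher. The count in either direction was 1 with normexp correction and 12 without the filter on dim probes. For 4 genes the higher Ip6k1-/- line was still below the lower Ip6k1+/+ line, against 12.6% of all probes, and for 0 genes the genotypes parted the other way, against 18.8%. Hoxa4, Hoxa5, Hoxa6, Hoxb7, Hoxb9, Hoxd4 and Hoxd9 entered the test through the Ip6k1+/+ lines alone, as did 1 Hoxb6 probe. Entry by that route favours a lower mean in Ip6k1-/-, so the direction of these genes supports nothing. In 16 of the 17 genes the gap between the lines of 1 genotype was larger than the difference between the genotypes.

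The 4 genes whose genotypes did not overlap were trunk genes. Hoxa7 read 0.88 and 2.37 in Ip6k1+/+ MEFs and 0.57 and 0.62 in Ip6k1-/- MEFs, and the difference was −1.03 (standard error 0.53). Here both Ip6k1-/- lines were close together and Ip6k1+/+ replicate 2 stood highest. Hoxd8 read −1.95 and −0.72 against −4.09 and −1.95, a difference of −1.69 (standard error 0.85), and Ip6k1-/- replicate 1 was the low line, while the higher Ip6k1-/- line was level with the lower Ip6k1+/+ line to the decimals printed. Hoxa5, a gene of the lung and the neck to chest transition, read −4.69 and −3.95 against −5.89 and −4.84, and both Ip6k1-/- values were not well above background. The excess in Ip6k1+/+ MEFs was at least 1.32-fold. Hoxa6 read −4.37 and −3.62 against −4.64 and −4.46, a difference of −0.55 (standard error 0.41). All 4 had an adjusted p of 0.993 in limma.

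The remaining HoxA genes tested differed by less than 2-fold between the genotypes. Hoxa3, needed for the thymus and the parathyroid, had the narrowest range over the 4 lines among these, at −2.90 and −3.15 in Ip6k1+/+ MEFs and −3.10 and −3.25 in Ip6k1-/- MEFs, a difference of −0.15 (standard error 0.32). Hoxa4 read −4.24 and −3.04, and −4.78 and −3.50, the third of these not well above background. Hoxa9 read −0.62 and 0.30, and −0.12 and −0.21, a difference of −0.01 (standard error 0.38) that turns to 0.035 with median scaling, and its Ip6k1-/- lines lay between the Ip6k1+/+ lines. Hoxa10 and Hoxa11, which pattern the lumbar and sacral spine, the limb and the uterus, were both higher in the lines numbered 1. Hoxa10 read 1.60 and −0.01, and 1.06 and 0.36. Hoxa11 read 1.48 and −0.49, and 1.16 and 0.27, a difference of 0.22 (standard error 0.74). Hoxa2, which was not tested, was well above background in Ip6k1+/+ replicate 2 alone, at −5.01. The second probes of Hoxa3 and Hoxa4 were at background in all lines.

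In HoxB, 4 genes were tested, and for each the lines of 1 genotype lay further apart than the genotypes. Hoxb7 read −4.80 and 2.29 in Ip6k1+/+ MEFs and −7.05 and 2.26 in Ip6k1-/- MEFs, so that the lines numbered 2 differed by little between genotypes and Ip6k1+/+ replicate 1 was just above the limit of detection. The difference of −1.14 had a standard error of 3.81. Both Hoxb9 probes gave the same picture, with −3.22 and 3.0 against −5.54 and 3.29 for A_52_P98462 (difference −1.01, standard error 3.52) and −3.30 and 2.75 against −6.91 and 3.19 for A_52_P973575 (difference −1.59, standard error 3.83). Both Hoxb9 probes were well above background in Ip6k1+/+ replicate 1 as well as in the lines numbered 2, and not in Ip6k1-/- replicate 1. The Hoxb9 signal was 74.6-fold higher in replicate 2 than in replicate 1 of Ip6k1+/+ by the first probe.

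Hoxb6 and Hoxb3 had probes that disagreed, and both genes count as detected in every line through 1 probe. Hoxb6 read −4.03 and 2.57 against −6.20 and 3.41 by A_51_P232207 (difference −0.67, standard error 3.80), but −2.42 and −1.85 against −2.27 and −1.65 by A_52_P648750 (difference 0.17, standard error 0.39). The first probe parted the lines as the rest of the cluster did, while the second was well above background in all of them at a nearly even signal. Hoxb3 read −1.96 and −1.05 against −2.69 and −1.60 by A_51_P460643 (difference −0.64, standard error 0.54). By A_52_P312467 it read −7.26 and −0.88 against −7.07 and −1.30, at least 10.9-fold higher in replicate 2 of Ip6k1-/- and by more in replicate 2 of Ip6k1+/+. Which probe follows the Hoxb3 transcript of these cells was not tested, and by the second probe Hoxb3 would join the 9 genes detected in the lines numbered 2 alone.

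Hoxc4 was the 1 HoxC gene tested and was even, at −2.42 and −2.57 against −2.17 and −2.52 (difference 0.15, standard error 0.32). The files align its probe over the bases 102866541 to 102866583 only. The other HoxD genes tested were Hoxd4 and Hoxd9. Hoxd4 read −2.69 and −0.90 against −5.98 and −1.32, a difference of −1.85 (standard error 1.65) that rests on Ip6k1-/- replicate 1, where the gene was not well above background. Hoxd9 read −1.90 and −3.42 against −2.66 and −4.86 by A_52_P385584 (difference −1.10, standard error 0.92), and −2.94 and −3.90 against −3.45 and −4.61 by A_51_P430728 (difference −0.61, standard error 0.58). In both genotypes Hoxd4 and Hoxd8 were higher in replicate 2 and Hoxd9 was higher in replicate 1, so that the order of the lines turned between Hoxd8 and Hoxd9.

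Genes beside the clusters were set beside these gaps. Within 300000 bases on either side of the 4 clusters lay 61 probes of other transcripts, of which 35, for 19 gene names, were well above background in every line. Over these 35 probes the median gap between lines of a genotype was 0.40, the largest 1.48 and the largest difference between genotypes 0.80 in size. That filter leaves out probes dim in a line, which is where the widest Hox gaps lay. Among Hox probes well above background in every line the widest gap was −2.14 (Hoxd8 in Ip6k1-/- MEFs, replicate 1 minus replicate 2). Another 5 of the 61 were detected in some lines only, 0 of them in the lines of 1 number alone. From the list of cluster neighbours, 15 of 19 genes on the array were tested with a median of 0.14 and 0 passed, and Skap1 (0.54), Cbx1 (0.52) and Snx11 (0.51) had the largest differences. Evx1 and Evx2, homeobox genes next to Hoxa13 and Hoxd13, were at background in all lines. Inside the clusters 9 probes of other transcripts were found and 5 were detected in a line. One of them, 1700109F18Rik in HoxD (A_51_P269053), on the strand opposite to the Hox genes, read −7.09 and −3.83 in Ip6k1+/+ MEFs and −6.92 and −4.30 in Ip6k1-/- MEFs, detected in the lines numbered 2 alone. Its other probe, A_51_P300921, was detected in Ip6k1+/+ replicate 2 alone, at −4.57. The rest had other patterns. 9530018H14Rik was detected in every line but Ip6k1+/+ replicate 2, 2700086A05Rik (A_52_P448879) in Ip6k1+/+ replicate 2 alone and 100043060 in Ip6k1-/- replicate 2 alone.

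RefSeq promoters, taken as 250 bases before to 50 bases after the start of a gene on build GRCm38.p6, were available for 22 of the 38 Hox genes as 24 entries. They held a median of 14.5 CG dinucleotides (range 4 to 45), against 7 over 32851 promoters of all genes, and Polycomb and Trithorax complexes are known to bind CG-rich promoters. The letters CCAAT, on either strand, stood in 15 of 24 (62.5%) against 37.4% of all promoters, and TATAAA in 4 (16.7%) against 13.6%. The 250 bases before the start are printed for 1 gene of each kind of line, Hoxd13 (31 CG dinucleotides) and Hoxb4 (14), with CG in capitals.
Hoxd13, GRCm38.p6 chr2:74667975-74668224, plus strand: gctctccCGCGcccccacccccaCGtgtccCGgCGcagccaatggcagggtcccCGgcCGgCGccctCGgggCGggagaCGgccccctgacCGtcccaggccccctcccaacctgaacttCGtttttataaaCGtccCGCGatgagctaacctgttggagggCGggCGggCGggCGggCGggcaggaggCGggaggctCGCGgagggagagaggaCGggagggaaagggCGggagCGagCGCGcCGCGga
Hoxb4, GRCm38.p6 chr11:96318017-96318266, plus strand: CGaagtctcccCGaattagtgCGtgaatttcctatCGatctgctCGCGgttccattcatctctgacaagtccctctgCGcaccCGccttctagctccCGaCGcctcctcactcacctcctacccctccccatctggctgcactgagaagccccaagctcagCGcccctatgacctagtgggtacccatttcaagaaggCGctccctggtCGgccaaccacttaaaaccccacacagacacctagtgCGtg
The array holds no measurement of methylation or binding at these sites.

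Of the TALE cofactors, 8 of 9 were detected in every line and tested, 0 passed, and the median difference was −0.04. Meis3 (−1.06, standard error 0.46), Meis2 (−0.47, standard error 0.59) and Pknox2 (0.21, standard error 0.33) had the largest differences. Meis1 was the exception and followed the lines: it read −7.04 and −1.22 in Ip6k1+/+ MEFs and −6.98 and −1.76 in Ip6k1-/- MEFs, at least 15.7-fold and at least 7.96-fold higher in replicate 2. Like the further untested genes below, it was chosen after its values were seen.

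None of the genes listed for the state of Hox chromatin passed the test, and 1, Jmjd3, had an unadjusted p below 0.05, against 3.34% of all probes. All 27 Polycomb genes on the list were detected in every line, 0 passed the test, and their differences ran from −0.47 (Cbx8) to 0.46 (Rbbp4) with a median of −0.10. Scmh1 was next in size at −0.46. Of 14 Trithorax and H3K27 demethylase genes, 1 was detected in the lines numbered 2 alone and was not tested. The other 13 were detected in every line and tested, and 0 passed, with a median of 0.04. The largest differences among them were in Jmjd3 (−0.87, standard error 0.23), an H3K27 demethylase, Dot1l (0.75, standard error 0.32) and Mll3 (−0.40, standard error 0.35), with limma adjusted p-values of 0.993. Jmjd3 read 1.90 and 1.66 in Ip6k1+/+ MEFs and 1.02 and 0.80 in Ip6k1-/- MEFs, which did not overlap.

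Among 16 genes known to set Hox domains in the embryo, 9 were tested, 0 passed, and the median difference was −0.09. An unadjusted limma p below 0.05 was found for 2 of the 9, against 3.34% of all probes. Past 2-fold 3 were lower and 1 higher in Ip6k1-/- MEFs, against 4.11% and 1.84% of all probes. Cdx1, Cdx2 and Cdx4, which activate trunk Hox genes, were at background in all lines. Egr2, an activator of hindbrain Hox genes and also a serum response gene, read 2.42 and 1.85 in Ip6k1+/+ MEFs and −0.49 and 0.47 in Ip6k1-/- MEFs (difference −2.15, standard error 0.42, limma adjusted p = 0.993). Cyp26a1, an enzyme that degrades retinoic acid, differed by 1.76 (standard error 0.52). Cyp26b1, which does so in the limb bud, was higher in the lines numbered 1, as were Hoxd10, Hoxd11 and Hoxd13. It read 1.70 and −2.75 in Ip6k1+/+ MEFs and 0.37 and −3.36 in Ip6k1-/- MEFs. In the lines numbered 2 it lay above the lowest signal well above background (−5.18 and −4.68), unlike Hoxd10 and Hoxd11. Cyp26b1 was chosen after its values were seen, and 0 genes of this list were detected in the lines numbered 1 alone.

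**Figure D5:**
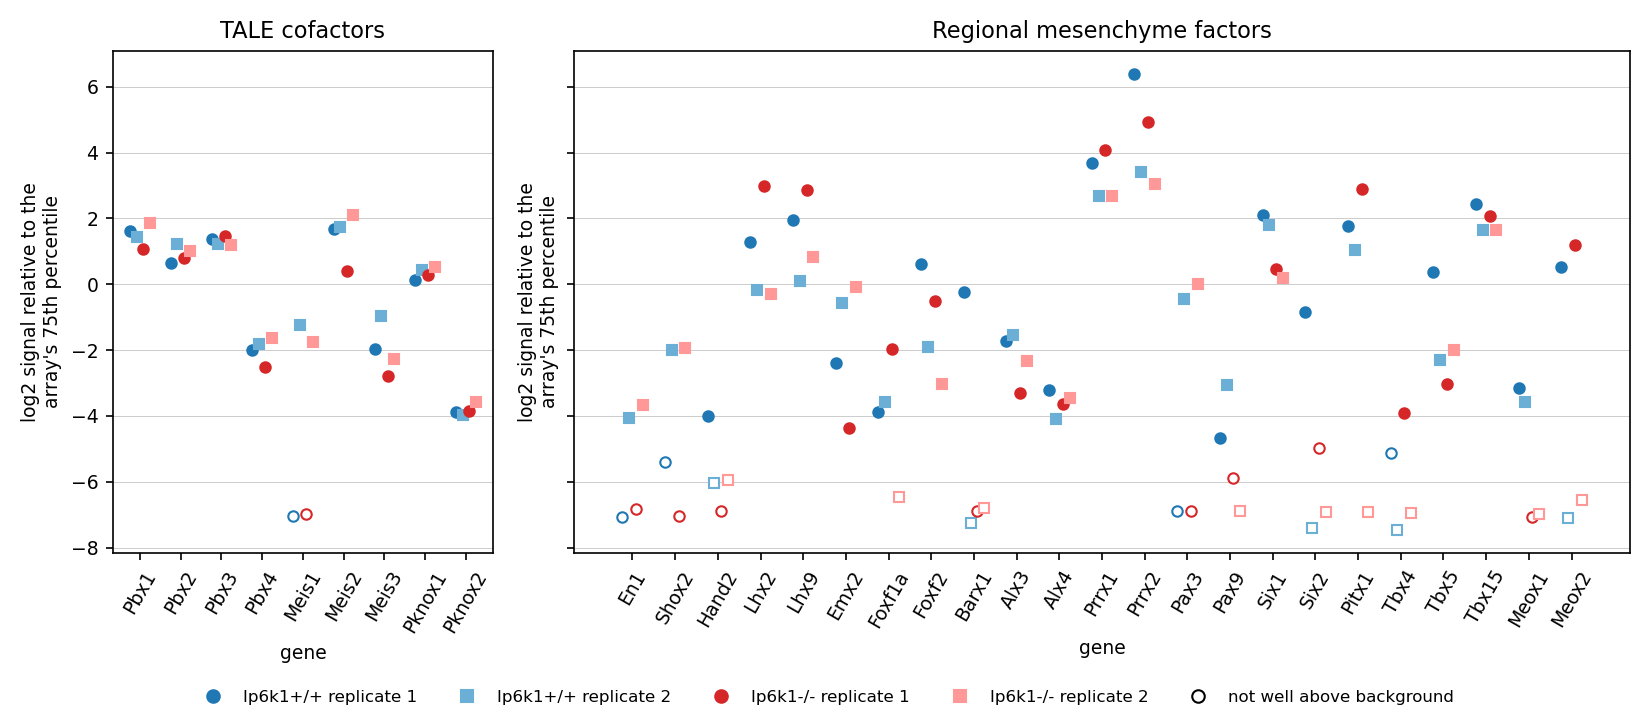
Log2 signal relative to the array's 75th percentile (y axis) in the 4 lines for TALE cofactors (left) and regional mesenchyme factors detected in at least 1 line (right), with open symbols where a probe was not well above background. Meis1, Pax3, En1 and Shox2 are filled in the lines numbered 2 alone and Meox2 in the lines numbered 1 alone.

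Other transcription factors that mark regions of the embryonic mesenchyme also varied by line. Of 27 on the list 15 were tested, 0 passed, and the median difference was −0.93, against 0.05 over all probes. Past 2-fold 7 were lower and 0 higher, against 4.11% and 1.84% of all probes. An unadjusted p below 0.05 was found for 4 of the 15, against 3.34% of all probes. Foxf1a, Meox1, Pax9 and Pitx1 entered the test through the Ip6k1+/+ lines alone, so that their direction supports nothing. Meox1, a somite gene, read −3.15 and −3.57 in Ip6k1+/+ MEFs and was at background in Ip6k1-/- MEFs, a gap of at least 2.56-fold (limma adjusted p = 0.468). Pitx1, a hindlimb gene, read 1.78 and 1.05 in Ip6k1+/+ MEFs and 2.90 and −6.93 in Ip6k1-/- MEFs, so that its difference of −3.43 (standard error 3.21) rests on Ip6k1-/- replicate 2. Pax9, a gene of the sclerotome and the pharyngeal pouches, was detected in both Ip6k1+/+ lines and at background in both Ip6k1-/- lines, a gap of at least 1.80-fold. Pax3, of the dermomyotome and neural crest, was detected with the HoxB genes in the lines numbered 2 alone, at −6.90 and −0.44 in Ip6k1+/+ MEFs and −6.90 and 0.01 in Ip6k1-/- MEFs. En1 and Shox2 had the same calls. Meox2, a gene of somites and limb muscle precursors, was detected with Hoxd10 in the lines numbered 1 alone, at 0.51 and −7.09 in Ip6k1+/+ MEFs and 1.20 and −6.57 in Ip6k1-/- MEFs.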

How the data were processed

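RNA of 4 MEF lines was measured on Agilent whole-genome 4x44K arrays, 1 array per line and 1 dye. The authors extracted the spot intensity with Agilent Feature Extraction 10.5.1.1 (version per the file headers), on a linear scale after its background correction, and deposited log2 values after a 75th percentile shift. After removal of 1 constant per array, the deposited log2 values and the computed ones deviated by a median of 0.0025. The deposited intensity was log2-transformed, and each array was shifted by its 75th percentile over 43379 spots without controls. Spots flagged as outliers were left out (96 to 133 per array) and spots of 1 probe averaged. Tested probes had to be well above background in both lines of a genotype and to have a value on every array (as 41145 of 41174 had). The brightest tested probe stood for a gene.

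The genotype test was limma's (3.58.1, in R 4.3.3), through lmFit and eBayes with trended variance and Benjamini-Hochberg adjustment over 21572 probes. P-values rest on the spread between 2 lines per genotype, with the variance of each probe drawn toward the trend over all tested probes. Tables were made in Python 3.11.15. The members, the gene lists and the rule for named genes were chosen with earlier results of these data known. That rule names Ip6k1, every Hox gene by detection, tested Hox genes with all tested probes, and from each list that is no marker list the 3 genes with the largest difference. Some genes and probe sequences that it covers are not reported here by name, and counts and medians include them. Gene names were used as in the array files. Promoters are from RefSeq (GRCm38.p6) and were not joined to mm9 coordinates. Alternatives were normexp with an offset of 50 (spots under their local background left out), quantile and median normalization, the deposited values, 2 other filters on dim probes, a floor, outlier spots kept, a replicate block, each line left out, other tests, other fold and probe rules, and detection as signal above local background. All 4 arrays share 1 slide, so slide was no block. The number of arrays limits the precision.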

Additional observations from a re-analysis of the deposited data

How the results depend on the processing

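Under every alternative run, 0 Hox genes were called, and 0 genes of the companion lists were called except at the own threshold of the methods' t-test (6). For all probes the count called was 3; it was 0 with normexp, with quantile normalization, with the floor, without any 1 line (range 0 to 0) and with the methods' t-test after Benjamini-Hochberg, 1 without a filter on dim probes and 1 with probes well above background on every array, and 849 at the t-test's own threshold. The 7 Hox genes past 2-fold became 3 when each Ip6k1-/- line had to lie at least 0.9 from the Ip6k1+/+ mean, 1 with normexp, 12 without a filter, 2 with probes well above background on every array and 4 with the floor. Leaving out 1 line gave 8 (Ip6k1+/+ replicate 2) to 20 (Ip6k1+/+ replicate 1), with 15 without Ip6k1-/- replicate 1 and 13 without Ip6k1-/- replicate 2. The 4 genes with genotypes that did not overlap became 7 without a filter, 2 with the strict filter and 10 to 21 without 1 line (Ip6k1+/+ replicate 2 and replicate 1), with 12 and 16 without Ip6k1-/- replicates 1 and 2. More genes pass the filter and separate when a genotype is 1 line. The median difference stayed below 0, between −0.65 and −0.11 with all 4 lines, and ran from −1.85 (without Ip6k1+/+ replicate 1) to 0.48 (without Ip6k1-/- replicate 1). Direction was compared over 265 alternative values for the single Hox genes named. The replicate block, the fit without a variance trend and both t-test settings leave the mean difference unchanged, so their values could not reverse. The filters on dim probes and the kept outlier spots also repeated it, apart from Hoxb6 under the strict filter. Of the 265 values, 242 kept their direction and 23, in 11 genes, reversed. With all lines these were Hoxa3 (0.0045) and Hoxb6 (0.14) under normexp, Hoxa9 (0.035) under the median, Hoxb6 (0.17) under the strict filter, which takes its other probe, and Hoxb6 (0.058) and Hoxb7 (0.0063) under the floor; the cause was not tested. Without 1 line the differences ran from −1.15 to 0.14 for Hoxa4, −0.47 to 0.46 for Hoxa9, −0.89 to 0.73 for Hoxa10, −0.77 to 1.20 for Hoxa11, −3.97 to 4.14 for Hoxb6, −5.79 to 3.51 for Hoxb7, −5.42 to 3.40 for Hoxb9, −0.025 to 0.32 for Hoxc4, −4.18 to 0.48 for Hoxd4 and −2.20 to 0.0048 for Hoxd9. Both ends of the Hoxb6 range are of A_51_P232207. Without Ip6k1+/+ replicate 2 (0.45) and without Ip6k1-/- replicate 2 (−0.14) the other Hoxb6 probe, A_52_P648750, was taken. The range therefore leaves out A_51_P232207 in those fits. Detection by signal above local background raised the counts to 29, 34, 24 and 33 of 38 genes. The replicate numbers are not stated to mark a shared origin and only 2 pairs exist; deviations of same-numbered lines correlated at r = 0.48 over 21572 probes, and with the replicate block 3 probes and 0 Hox genes were called. Values under −4.68 to −5.20, depending on the array, lie below its lowest signal well above background and give bounds alone. Between 10 and 14 of the 17 genes were lower in Ip6k1-/- MEFs without 1 line, lowest without Ip6k1+/+ replicate 2.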
